A study of Arabidopsis thaliana with 6 samples.

Results

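The group C and group S1 bZIP genes of Arabidopsis thaliana encode 9 transcription factors with a basic DNA-binding region and a leucine zipper. They were selected by their TAIR gene identifiers: bZIP1, bZIP2, bZIP11, bZIP44 and bZIP53 of group S1, and bZIP9, bZIP10, bZIP25 and bZIP63 of group C. Of the 9 identifiers, 7 were found as entries in a table of 32424 loci, 3 of them in group S1 and 4 in group C. No entry carried the identifier of bZIP2 (AT2G18160) or bZIP53 (AT3G62420). For each there was 1 locus named after the upstream reading frame in its messenger RNA, AT2G18162 for bZIP2 and AT3G62422 for bZIP53. The deposited annotation of both loci names the bZIP gene as the main reading frame. Of 37 upstream reading frames annotated in this way, 24 had no separate entry for the main gene. Whether the fragments of the bZIP2 and bZIP53 loci came from the whole messenger RNA was not tested, and both are called upstream-ORF loci here.

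Seedlings of the wild-type accession Col-0, labelled as 4 days old, were incubated for 1 h in liquid medium with 1% sucrose, supplemented either with N-linolenoylethanolamine (NAE 18:3) at 100 µM or with the solvent DMSO at 0.07%. NAE 18:3 is a fatty acid amide made of linolenic acid and ethanolamine. RNA-seq was done on 3 biological replicates of each treatment, on RNA of whole seedlings. The labels do not give the DMSO content of the NAE 18:3 medium, so an effect of unequal solvent cannot be told apart from one of the compound. The growth text gives 3 days as the age at transfer. The question was how transcript levels differ after a short exposure to this N-acylethanolamine.

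Factors of group C pair with those of group S1, and such heterodimers bind DNA and activate genes more strongly than most of the homodimers. Together they form a network that adjusts amino acid and sugar metabolism to low energy, downstream of the kinase SnRK1, which is active when sugar is scarce. The messenger RNAs of group S1 carry a conserved upstream reading frame through which sucrose represses translation of the main protein, a step that RNA-seq does not measure.

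Levels are given as FPKM, fragments divided by transcript length and by the size of the library, so different genes can be compared per length. Summed FPKM over all loci was 991483 to 1140302 in NAE 18:3 libraries and 688025 to 866221 in DMSO libraries. The absolute depth is unknown. Relative depth was estimated from the most common FPKM ratio between NAE 18:3 replicate 1 and each other library. Only single-transcript loci above 0 and below 0.3 FPKM in both libraries were used, and 23.8% to 29.7% of them lay near that ratio. The estimate was 0.988 for NAE 18:3 replicate 2 and 1.26 for NAE 18:3 replicate 3, both relative to NAE 18:3 replicate 1. It was 0.482, 0.752 and 0.968 for DMSO replicates 1, 2 and 3, so DMSO replicate 1 had the lowest estimate. Green tissue markers were detected in every library, with a summed level of 59378 to 62232 FPKM after NAE 18:3 and 27159 to 28531 FPKM in DMSO, and 6 of 6 were higher after NAE 18:3. With quantile normalization 4 of the 6 were called higher and their median log2 change was 0.36, against 1.84 on the deposited scale, with LHCB3 at -0.13 and RBCS1A at 0.00 not called. Root markers summed to 37.0 to 41.7 FPKM after NAE 18:3 and 136 to 150.4 FPKM in DMSO, with 5 of 6 tested lower, and COBL9 was below the level for testing. The 4 seed markers summed to 1.69 to 1.95 FPKM after NAE 18:3 and 57.7 to 86.9 FPKM in DMSO, and all 4 were lower. Of all loci tested, 44.1% were called higher and 39.2% lower on the deposited scale.

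After 1 h of NAE 18:3 the transcripts of the network stood at other levels than in DMSO, in both directions. bZIP1 and bZIP63, both near 2 FPKM in DMSO, stood at 75.6 and 86.0 FPKM after NAE 18:3. bZIP11 and bZIP44, each above 25 FPKM in DMSO, fell below 7 FPKM. bZIP9, bZIP25 and the upstream-ORF loci of bZIP2 and bZIP53 rose by 1.79-fold to 4.32-fold, while bZIP10 differed by 1.19-fold. All 7 entries passed the test, 5 higher and 2 lower, although bZIP10, among the 5, turned in sign and lost its call with either of the other scalings tried. Among all 18194 loci tested 83.2% passed (44.1% higher and 39.2% lower), so a call alone does not set these genes apart. At least 2-fold changes were found for 6 of the 7 on the deposited scale, against 35.6% of all loci. bZIP25, among the 6, was below 2-fold with upper-quartile scaling (log2 change 0.85) and with quantile normalization (0.83). The groups did not overlap for any of the 7, against 84.6% of all loci without overlap. Both upstream-ORF loci also passed, were higher after NAE 18:3 and did not overlap. In whole seedlings, fewer cells of a type and less RNA per cell cannot be told apart, and the part of the shifts in green, root and seed markers in these results was not tested.

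**Figure D1:**
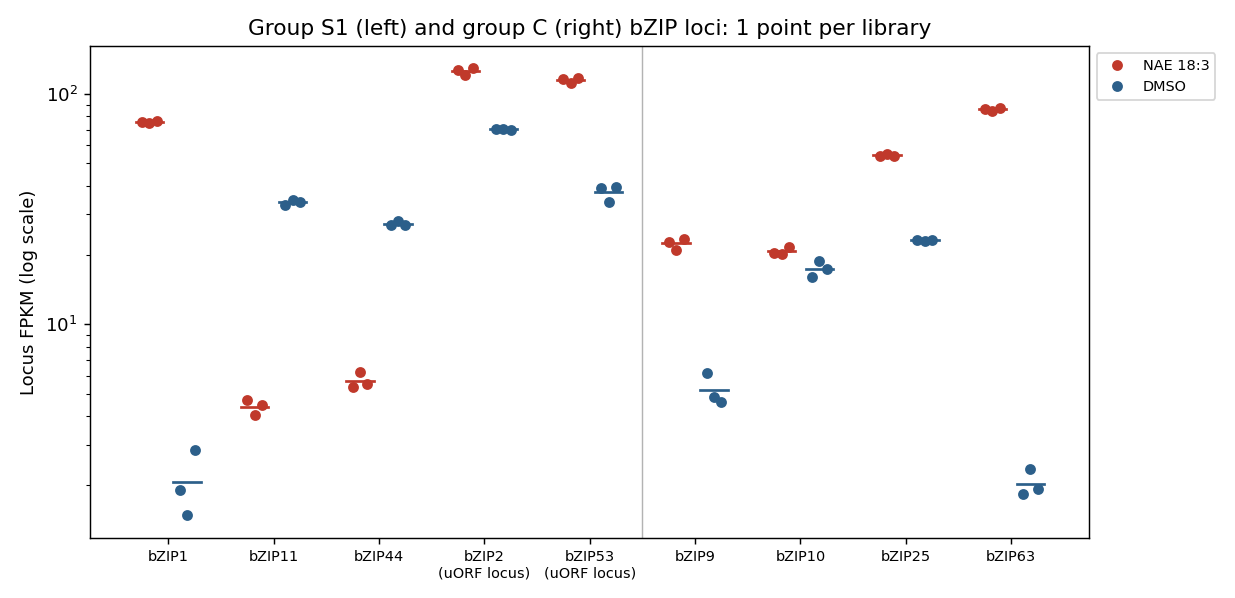
Locus FPKM (log scale) of the group S1 loci (left of the line) and group C loci (right), with 1 point per library, NAE 18:3 in red and DMSO in blue, and bars at the means. bZIP1 and bZIP63 stand near 2 FPKM in DMSO and at 75.6 and 86.0 FPKM after NAE 18:3, bZIP11 and bZIP44 lie lower after NAE 18:3, and for no locus do the groups overlap.

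In group S1, bZIP1 (AT5G49450), a factor that rises in darkness and starvation and acts in amino acid breakdown, showed the largest rise. Its level was 75.8, 75.0 and 76.1 FPKM in NAE 18:3 replicates 1, 2 and 3, and 1.91, 1.48 and 2.84 FPKM in DMSO replicates 1, 2 and 3. All NAE 18:3 libraries were far above all DMSO libraries, and the spread was relatively wider in DMSO. The means were 75.6 ± 0.587 FPKM and 2.08 ± 0.696 FPKM (SD, n = 3 each), a ratio of 36.4 that ran from 26.4 to 51.4 over pairs of single libraries. On the log2(FPKM + 1) scale bZIP1 rose by 4.66 ± 0.14 (± is the standard error for log2 changes and the SD for FPKM and shares throughout, limma with Benjamini-Hochberg adjusted p = 4.5e-09), and 0.511% of all loci tested rose as much or more. This scale understates the change of loci near 0, and with a pseudocount of 0.1 the log2 change of bZIP1 was 5.17.

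bZIP11 (AT4G34590), the factor in which sucrose-repressed translation was first worked out and a regulator of asparagine synthetase and trehalose phosphate metabolism, went the other way. It stood at 4.67, 4.04 and 4.46 FPKM in the NAE 18:3 libraries and at 33.1, 34.5 and 33.8 FPKM in the DMSO libraries. Every NAE 18:3 library lay below every DMSO library, with little spread in either group. The means of 4.39 ± 0.322 FPKM after NAE 18:3 and 33.8 ± 0.711 FPKM in DMSO gave a 7.70-fold lower level, or -2.69 ± 0.06 as a log2 change (limma, adjusted p = 8.6e-10). As large a fall or a larger one was seen at 1.31% of all loci tested.

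bZIP44 (AT1G75390), a close relative of bZIP11 with a role in seed germination, fell in the same direction. Its level was 5.34, 6.22 and 5.54 FPKM after NAE 18:3 and 27.0, 28.1 and 26.9 FPKM in DMSO, again without overlap. The fall was 4.80-fold, or -2.08 ± 0.06 as a log2 change (limma, adjusted p = 5.2e-09).

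The upstream-ORF locus of bZIP53 (AT3G62422) held 116.1, 112.1 and 117.3 FPKM in NAE 18:3 libraries and 39.0, 33.9 and 39.4 FPKM in DMSO libraries. bZIP53 is a regulator of proline dehydrogenase and of seed maturation genes, and prefers group C partners. The NAE 18:3 libraries were 3.08-fold higher on average, without overlap (log2 change 1.60 ± 0.06, limma adjusted p = 1.9e-08). The upstream-ORF locus of bZIP2 (AT2G18162), whose factor acts with bZIP53 on proline dehydrogenase, was at 127.5, 120.7 and 129.4 FPKM after NAE 18:3 and at 70.7, 70.8 and 69.7 FPKM in DMSO. It was the most abundant of the 9 loci in both groups. Its rise of 1.79-fold was the smallest in group S1 (log2 change 0.83 ± 0.04, limma adjusted p = 5.0e-08).

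All 4 group C loci were higher on the deposited scale, beside 44.1% of all loci tested. Their changes differed widely in size, and bZIP10 turned in sign under other scalings. bZIP63 (AT5G28770), a direct substrate of SnRK1 in the starvation response, had the highest estimated change of the 9 loci on the deposited scale, but its 95% interval on the log2 scale (4.69 to 5.00) overlapped that of bZIP1 (4.35 to 4.98). Without DMSO replicate 3 their order turned, with bZIP63 at 4.82 and bZIP1 at 4.84. It stood at 86.0, 84.7 and 87.3 FPKM in NAE 18:3 libraries and at 1.83, 2.35 and 1.93 FPKM in DMSO libraries. The groups were widely apart, and in each the libraries lay close together. The means of 86.0 ± 1.32 FPKM and 2.04 ± 0.272 FPKM (SD, n = 3 each) differed 42.2-fold, or 36.1-fold to 47.6-fold over pairs of single libraries. On the log2 scale bZIP63 rose by 4.84 ± 0.07 (limma, adjusted p = 9.3e-11), and 0.445% of all loci tested rose as much or more.

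bZIP9 (AT5G24800), a group C factor known from phloem tissue, was at 22.9, 21.1 and 23.4 FPKM after NAE 18:3 and at 6.14, 4.83 and 4.62 FPKM in DMSO. Its rise was 4.32-fold (log2 change 1.93 ± 0.09, limma adjusted p = 1.2e-07). In the TAIR10.1 annotation bZIP9 overlaps the neighbouring gene AT5G24810 on the opposite strand by 35 bp. AT5G24810 rose as well, at 22.2 ± 0.728 FPKM after NAE 18:3 and 8.88 ± 0.395 FPKM in DMSO, and without strand information fragments in the overlap cannot be told apart. No other gene of that annotation overlaps any of the 9.

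bZIP25 (AT3G54620), which with bZIP10 activates seed storage protein genes, was at 54.1, 55.2 and 53.7 FPKM in NAE 18:3 libraries and at 23.3, 23.0 and 23.4 FPKM in DMSO libraries. The rise was 2.34-fold (log2 change 1.19 ± 0.04, limma adjusted p = 4.9e-09). A second small locus under the same identifier reached 0.211 FPKM at most and was not tested. bZIP10 (AT4G02640), which shuttles between nucleus and cytoplasm and is held in the cytoplasm by the cell death regulator LSD1, was the least changed. It stood at 20.4, 20.2 and 21.7 FPKM after NAE 18:3 and at 16.1, 18.8 and 17.4 FPKM in DMSO. Its log2 change of 0.24 (95% interval 0.10 to 0.39) passed on the deposited scale (limma, adjusted p = 0.0057), but after upper-quartile scaling it was -0.09 (limma, adjusted p = 0.18), and after quantile normalization -0.02 (adjusted p = 0.75). No direction is given for bZIP10. The other 8 loci passed in the same direction with both of these scalings.

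The median log2 change of all loci was 0.06 on the deposited scale, and -0.25 and -0.03 once libraries were brought to one upper quartile or to one distribution (quantile normalization). Under the upper-quartile scaling 6 of the 7 entries passed beside 84.4% of all loci, of which 32.2% were higher and 52.2% lower. Under quantile normalization 6 passed beside 82.4% of all loci, with 39.8% higher and 42.6% lower. The smallest of the other rises, that of the bZIP2 upstream-ORF locus, was 0.48 with either scaling. The changes of bZIP1 and bZIP63 were 4.37 and 4.55 with upper-quartile scaling, and those of bZIP11 and bZIP44 were -3.01 and -2.40.

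**Figure D2:**
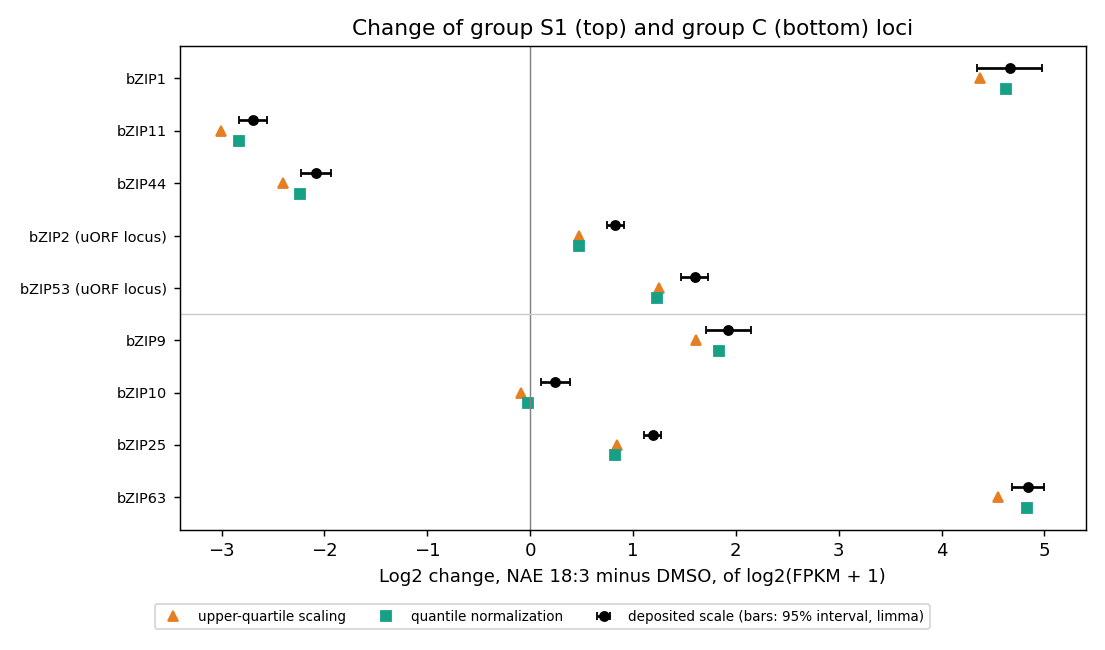
Log2 change (NAE 18:3 minus DMSO, of log2(FPKM + 1)) of the 9 loci on the deposited scale with 95% intervals (circles) and under upper-quartile scaling (triangles) and quantile normalization (squares). bZIP10 lies at 0.24, -0.09 and -0.02 across the 3 scales, and the other 8 loci keep their side of 0.

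The order of levels within the network differed between the treatments. After NAE 18:3 it ran, by mean FPKM, from the bZIP2 upstream-ORF locus (125.9) over the bZIP53 upstream-ORF locus (115.2), bZIP63 (86.0), bZIP1 (75.6), bZIP25 (54.3), bZIP9 (22.5), bZIP10 (20.8) and bZIP44 (5.70) down to bZIP11 (4.39). In that order only the neighbours bZIP9 and bZIP10 overlapped. In DMSO it ran from the bZIP2 upstream-ORF locus (70.4) over the bZIP53 upstream-ORF locus (37.4), bZIP11 (33.8), bZIP44 (27.3), bZIP25 (23.2), bZIP10 (17.4), bZIP9 (5.20) and bZIP1 (2.08) to bZIP63 (2.04). Here bZIP1 overlapped with bZIP63, and the bZIP53 upstream-ORF locus with bZIP11. bZIP63 and bZIP1 thus took places 3 and 4 after NAE 18:3 and places 9 and 8 in DMSO, while bZIP11 and bZIP44 took places 9 and 8 after NAE 18:3 and places 3 and 4 in DMSO.

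The summed level of all 9 loci was 513, 499 and 519 FPKM in NAE 18:3 libraries and 219, 218 and 220.0 FPKM in DMSO libraries. The group C sum was 183, 181 and 186 FPKM after NAE 18:3 and 47.4, 49.0 and 47.3 FPKM in DMSO, and the group S1 sum with the upstream-ORF loci was 329, 318 and 333 FPKM after NAE 18:3 and 172, 169 and 173 FPKM in DMSO. Group S1 therefore held a smaller share of the sum after NAE 18:3, 64.0% ± 0.281, than in DMSO, 78.1% ± 0.54 (SD, n = 3 each). Without the upstream-ORF loci these shares were 31.8% ± 0.185 after NAE 18:3 and 56.9% ± 0.37 in DMSO. These sums are descriptions of the 9 loci chosen, with no test. They are on the deposited scale, where FPKM summed over all loci was also higher after NAE 18:3 (991483 to 1140302) than in DMSO (688025 to 866221).

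Within group C, bZIP63 made up 46.8% ± 0.0967 of the summed FPKM after NAE 18:3 and 4.25% ± 0.482 in DMSO. bZIP25 held 29.6% ± 0.803 after NAE 18:3 and 48.5% ± 1.31 in DMSO, and bZIP10 held 11.3% ± 0.286 after NAE 18:3 and 36.4% ± 2.21 in DMSO. The share of bZIP9 was 12.2% ± 0.51 after NAE 18:3 and 10.9% ± 1.81 in DMSO, with overlapping libraries. bZIP63 was thus the most abundant group C transcript after NAE 18:3 and the least abundant one in DMSO.

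**Figure D3:**
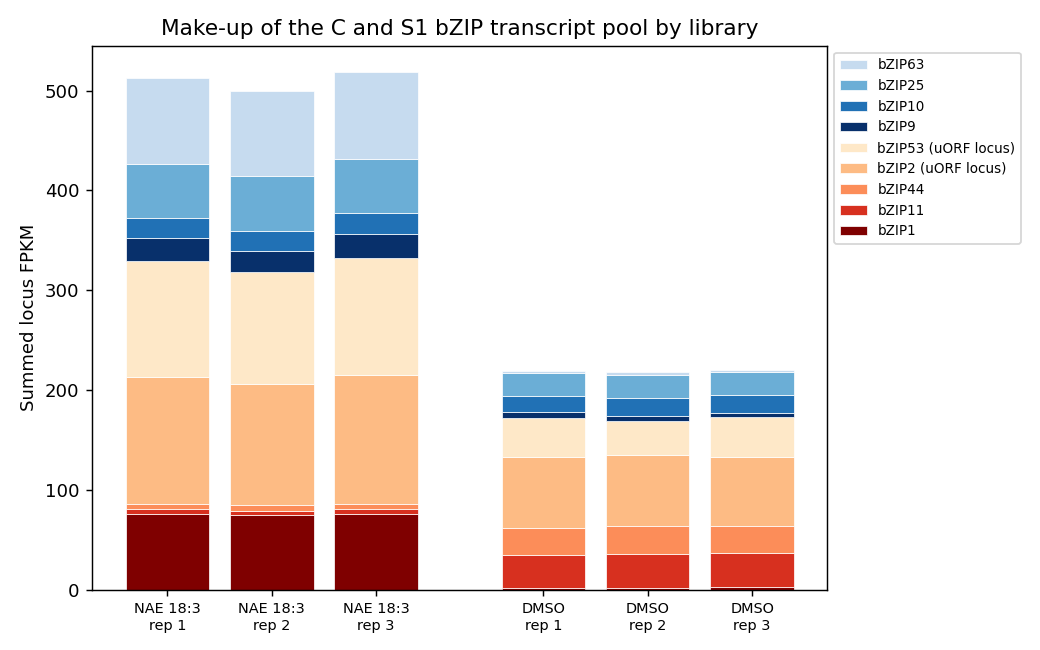
Summed locus FPKM of the 9 loci in each library, stacked by gene, with group S1 in red shades at the base and group C in blue shades on top. The stack reaches 499 to 519 FPKM in the 3 NAE 18:3 libraries and 218 to 220.0 FPKM in the 3 DMSO libraries, with bZIP1 and bZIP63 nearly absent from the DMSO stacks.

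The transcript values show which messenger RNA forms carried these levels. Their division within a locus rests on an assignment of shared fragments, so they are given without a test. For bZIP63, assembled as 3 transcripts, the form nearest to gene model AT5G28770.2 led, with 66.6, 68.4 and 70.6 FPKM in NAE 18:3 libraries and 1.83, 1.69 and 1.22 FPKM in DMSO libraries. It held 77.5% to 80.9% of the locus after NAE 18:3 and 63.2% to 99.9% in DMSO, where so low a level makes the share variable. The forms nearest to AT5G28770.1 and AT5G28770.3 were at 9.18 to 12.6 FPKM and at 5.75 to 7.51 FPKM after NAE 18:3, and both were below 1 FPKM in every DMSO library. All 3 forms of bZIP63 were therefore higher after NAE 18:3 in every library.

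For bZIP25 the form nearest to AT3G54620.1 was at 42.8, 45.8 and 41.8 FPKM after NAE 18:3 and at 14.9 to 16.5 FPKM in DMSO. Its share of the locus was 79.1%, 83.0% and 77.8% after NAE 18:3 and 64.5%, 71.5% and 64.0% in DMSO, without overlap. Of the minor forms nearest to AT3G54620.3, the most abundant stood at 5.49 to 6.49 FPKM after NAE 18:3 and 2.37 to 4.63 FPKM in DMSO, without overlap. Another stood at 2.06 to 3.67 FPKM after NAE 18:3 and 2.45 to 2.94 FPKM in DMSO, with overlap. Most of the difference in FPKM at the locus lay in its main form. For bZIP10 the shares overlapped between the groups, with the form nearest to AT4G02640.1 at 66.2% to 69.6% after NAE 18:3 and 59.1% to 71.8% in DMSO. bZIP44 had 1 dominant form, with 97.0% or more of the locus after NAE 18:3 and 96.5% or more in DMSO. bZIP1, bZIP9, bZIP11 and both upstream-ORF loci were assembled as a single transcript each.

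**Figure D4:**
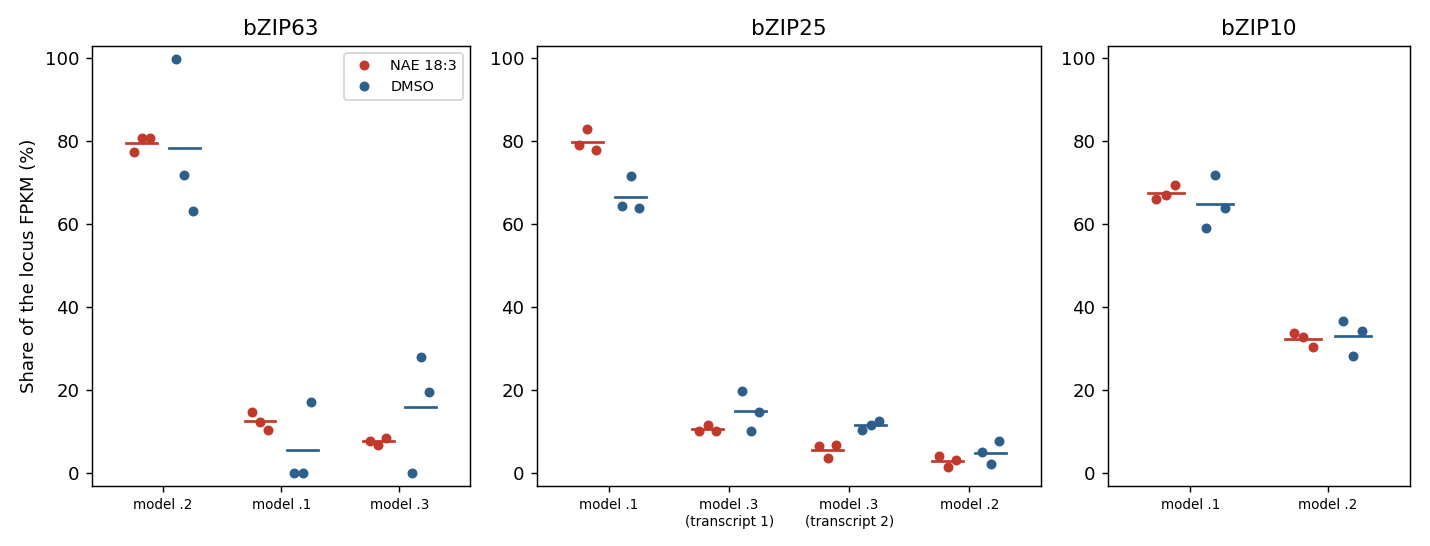
Share of the locus FPKM (%) held by each assembled transcript of bZIP63, bZIP25 and bZIP10, labelled by the nearest gene model, with 1 point per library, NAE 18:3 in red left of DMSO in blue, and bars at the means (forms with a mean under 0.5 FPKM in both groups left out). The main form of bZIP25 holds 77.8% to 83.0% after NAE 18:3 and 64.0% to 71.5% in DMSO, while the shares of bZIP10 overlap.

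Loci with the most similar profiles were found by the Euclidean distance between log2(FPKM + 1) values over the 6 libraries, each centred on its own mean. With 2 groups of 3 libraries this mostly finds loci with a change of the same size. Nearest to bZIP63 were the zinc finger gene ZAT6 (AT5G04340, distance 0.108) and AT4G17250, of unknown product (0.228). Nearest to bZIP1 were AT4G33666, also of unknown product (0.116), and the zinc finger gene AT3G46080 (0.238). For bZIP9 they were ESL1 (AT1G08920), a monosaccharide transporter (0.0911), and AT5G17850, of the sodium/calcium exchanger family (0.142). For bZIP11 they were AT5G08180, of the L7Ae ribosomal protein family (0.0793), and AT1G52930, a Brix domain protein annotated for ribosomal RNA processing (0.11), which stood at 7.55 ± 0.549 FPKM after NAE 18:3 and 56.6 ± 1.66 FPKM in DMSO.

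Of 45 further bZIP loci tested, from groups A, B, D, E, F, G, H, I, K and the rest of group S, 24 rose and 11 fell, 10 did not pass, and the median log2 change was 0.26. The share called was 77.8%, against 83.2% of all loci (44.1% higher and 39.2% lower), so the count lies near the background. With upper-quartile scaling 18 were higher and 19 lower, beside 32.2% higher and 52.2% lower among all loci. With quantile normalization 21 were higher and 11 lower, beside 39.8% higher and 42.6% lower among all loci. Their log2 changes ran from -1.06 for TGA7 (AT1G77920), of the TGA factors of defence signalling, to 1.79 for ABF4 (AT3G19290), an abscisic acid response factor. None was as high as bZIP1 or as low as bZIP11, nor as low as bZIP44. In groups G and H, which hold the G-box binding factors and HY5 of light responses, 6 of 7 rose with a median of 1.22. GBF1 (AT4G36730) stood at 80.7 ± 1.22 FPKM after NAE 18:3 and 23.0 ± 1.67 FPKM in DMSO, and the joined locus of HYH and RBL14 rose by 1.51 on the log2 scale. In group A 6 of 8 rose and 1, ABI5 (AT2G36270), fell, but with either other scaling only 3 were called higher. Beside ABF4, ABF3 (AT4G34000) rose by 0.53 in group A.

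In group D 2 of 10 rose, TGA4 (AT5G10030) and TGA5 (AT5G06960), the call of TGA5 being lost with upper-quartile scaling, and 5 fell, among them TGA7 and TGA3 (AT1G22070), with log2 changes of -1.06 and -0.40. In groups B, F and K 3 of 6 rose, led by bZIP60 (AT1G42990) and bZIP28 (AT3G10800), factors of endoplasmic reticulum stress, with log2 changes of 1.64 and 1.17, and bZIP23 (AT2G16770), of zinc deficiency, fell by 0.47. In groups E and I 5 of 9 rose and 3 fell. The call of bZIP59 (AT2G31370), among the 5, was lost with either other scaling (log2 change -0.01 with each). VIP1 (AT1G43700) and bZIP29 (AT4G38900) had log2 changes of 1.48 and 0.62, bZIP61 (AT3G58120) and bZIP52 (AT1G06850) changes of -0.34 and -0.41. Of the 12 group S genes outside S1, 7 were below the level for testing. Among the 5 tested, bZIP58 (AT1G13600) and bZIP6 (AT2G22850) rose by 1.31 and 0.35, the call of bZIP6 being lost with upper-quartile scaling (log2 change 0.11), and bZIP3 (AT5G15830) fell by 1.05. These group counts stand beside 44.1% of all loci called higher and 39.2% called lower, and no difference from those shares was tested.

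**Figure D5:**
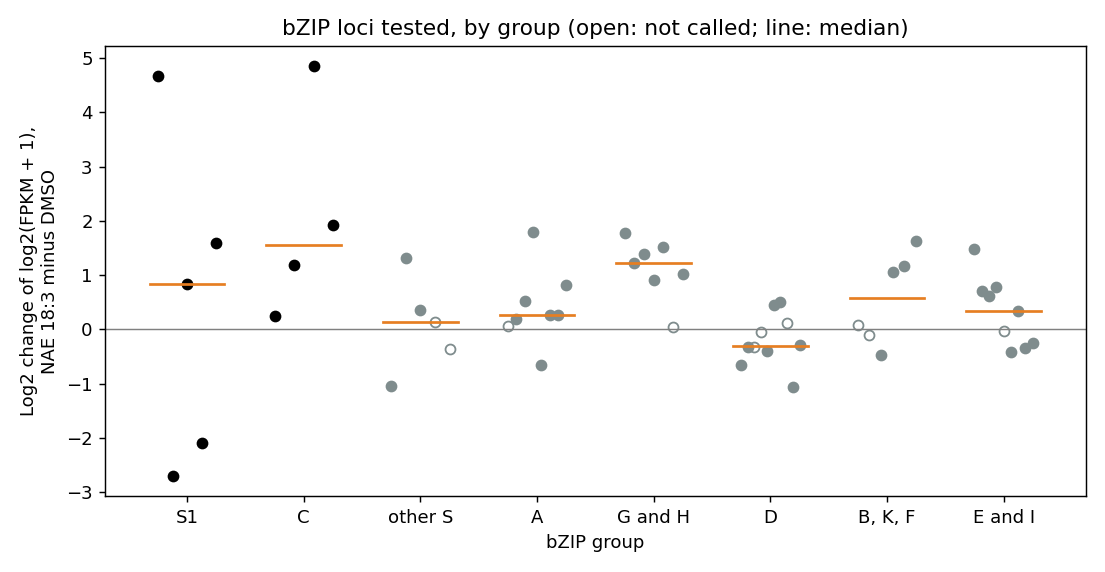
Log2 change (NAE 18:3 minus DMSO, of log2(FPKM + 1)) of each bZIP locus tested, by group, with group S1 and C loci in black, other groups in grey, open circles for loci that did not pass and a line at the median. The S1 and C loci reach from -2.69 to 4.84, the other 45 loci from -1.06 to 1.79.

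Upstream of the network, 6 of 7 genes of the SnRK1 complex were tested, of which 3 rose and 1 fell (median log2 change 0.36, against 0.06 for all loci). Among all loci 44.1% were higher and 39.2% lower, so this count does not set the complex apart. The regulatory subunit gene KINBETA1 (AT5G21170) stood at 134 ± 4.07 FPKM after NAE 18:3 and 9.37 ± 1.39 FPKM in DMSO, a log2 change of 3.71. The kinase genes KIN11 (AT3G29160) and KIN10 (AT3G01090) had log2 changes of 1.34 and 0.75, and KINBETA2 (AT4G16360) fell by 0.51. SNF4 (AT1G09020) and KINBETA3 (AT2G28060) did not pass, at -0.04 and -0.05, and both were called lower with either other scaling. The kinase gene KIN12 was listed at 0 in every library.

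Downstream, 19 loci of genes reported as targets of C and S1 factors were tested, and 17 rose and 2 fell, with a median log2 change of 4.17. The gene DIN10 (AT5G20250) accounts for 2 of the 17 loci. Among all loci 44.1% rose and 39.2% fell. With upper-quartile scaling 16 rose and 2 fell (median 3.83). Many genes of this list were known beforehand to have changed in these libraries, so the count is no independent evidence, and whether any of them responded to a C or S1 factor was not tested. ASN1 (AT3G47340), the asparagine synthetase gene that bZIP1, bZIP11 and bZIP53 have each been shown to activate, held 869 ± 20.7 FPKM after NAE 18:3 and 0.426 ± 0.149 FPKM in DMSO. SEN1 (AT4G35770), a dark-inducible gene, was at 1294 ± 18.9 FPKM after NAE 18:3 and 28.4 ± 1.04 FPKM in DMSO. ProDH1 (AT3G30775), the proline dehydrogenase gene bound by heterodimers of bZIP53 with group C factors, was at 472 ± 19.6 FPKM after NAE 18:3 and 8.04 ± 0.574 FPKM in DMSO. The 2 that fell encode trehalose phosphate phosphatases, TPPA (AT5G51460) and TPPE (AT2G22190), with a log2 change of -0.39 each. The call of TPPE was lost with quantile normalization. That of IAA3 (AT1G04240), among the 17, was lost with upper-quartile scaling (log2 change -0.03) and with quantile normalization (0.14). ProDH2 (AT5G38710) was below the level for testing, at 1.47 ± 0.13 FPKM after NAE 18:3 and 0.137 ± 0.0498 FPKM in DMSO, and TPS9 had no entry under its own identifier.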

How the data were processed

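The authors processed the reads with TopHat, Cufflinks and Cuffdiff against TAIR9, per the submitters' processing notes. Versions, settings and strand use are not given in the sources used here. The deposited table gives FPKM values for 61448 assembled transcripts and their 32424 loci in each of 6 libraries. Each column was assigned to its library by the description of the sample, and 4 columns of the authors' merged values were not used. Names and overlaps of genes came from the TAIR10.1 annotation, which holds all 9 bZIP identifiers but is not the TAIR9 build named by the submitters. The overlaps were computed from its gene positions, which are not printed here.

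The 18194 loci whose FPKM averaged 1 or more over all libraries were tested. Limma 3.58.1 (R 4.3.3) was run on log2(FPKM + 1) with treatment as the sole term and a trend of variance on mean in the empirical Bayes step. P-values were adjusted by Benjamini and Hochberg over all loci tested, and a locus was called at an adjusted p under 0.05. The fit was tested on simulated data in which few loci changed, unlike the libraries here. FPKM keeps no counts, so no counting intervals are given. 644 loci join several genes, among them those of PRR7, EEL, bZIP68 and HYH.

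The members and lists were chosen with earlier results of these data known. Besides the members, up to 2 risen and 2 fallen genes with the smallest adjusted p were to be named from each list. Marker lists are given as sums. KIN10, ProDH1, AT5G24810, ProDH2, KIN12, SNF4, KINBETA3, TPS9, COBL9, LHCB3, RBCS1A, DIN10, IAA3 and bZIP59 were named after their values had been seen. Alternatives were another pseudocount, other filters, upper-quartile and quantile scaling, a replicate block, no trend, summed transcript values and each library left out.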

Additional observations from a re-analysis of the deposited data

How the results depend on the processing

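Across the alternatives, the log2 changes of the 9 loci kept direction and call in 124 of 126 comparisons with the reported value. The exceptions were both for bZIP10, which was -0.0912 under upper-quartile scaling and -0.0226 after quantile normalization, where the number of the 7 entries that passed was 6. The cause was not tested. With other filters, a replicate block or no trend the log2 change equals the reported one by construction, so only the call could differ. Summed transcript values repeated the reported log2 changes and adjusted p-values of the 9 loci, so they add no separate comparison. With single libraries left out, the log2 change ran from 4.52 to 4.84 for bZIP1, 4.80 to 4.92 for bZIP63, -2.73 to -2.65 for bZIP11, -2.14 to -2.04 for bZIP44 and 0.191 to 0.296 for bZIP10. Counting both upstream-ORF loci, an alternative added after seeing the data, 9 passed. The number of all loci called ran from 11702 of 13495 tested with at least 5 FPKM to 16840 of 24155 tested without a filter. The larger count was thus the smaller share of the loci tested. Equal replicate numbers showed no shared deviation: their deviations correlated at -0.0133, -0.00872 and 0.0182 across loci, beside -0.0184 to 0.0238 for unequal numbers. Whether libraries were handled in pairs cannot be told from these values. With a replicate block 15012 loci and the same 7 entries passed. Depth is unknown in absolute terms, which limits loci near 2 FPKM, such as bZIP1 and bZIP63 in DMSO.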
